A study of Mus musculus with 6 samples.

Results

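Mitosis and spindle genes were examined in B cells of Em-Myc (Eµ-Myc) mice, a lymphoma model whose Myc transgene is expressed from the immunoglobulin heavy chain enhancer in B lineage cells. The set was a list of 60 named genes, and each was represented by the probe set that carried its symbol in the platform annotation, or by the brightest one where there were several. This gave 58 measured genes among 19938 genes tested, with Sgol1 measured under its newer symbol Sgo1. Ccnb1 was not analysed here, and the probe set of Kifc1 is shared with Kifc5b and was not used.

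All 6 samples were RNA from Em-Myc B cells on 1-colour Affymetrix Mouse Gene 1.0 ST arrays. Splenic B cells, sorted from premalignant animals in 2 independent preparations, carried no hairpin. Primary lymphomas had been generated with hairpin RNAs that target Ezh2, which encodes the catalytic subunit of a polycomb repressive complex, and 2 samples each held shEzh2.781 and shEzh2.556. The lymphomas were bead-purified with a CD43 kit to at least 95% B220 and GFP positive cells. The labels give no strain, age or sex, call the premalignant cells normal in one field, and do not state whether a hairpin's samples are lymphomas of different mice. The p-values therefore cover only the scatter among these arrays, some of which could be technical. Since every lymphoma analysed here carried a hairpin against Ezh2, effects of malignancy, hairpin and purification cannot be told apart in comparisons with premalignant cells.

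Mitosis is driven by cyclin-dependent kinase 1 with its A and B cyclins, and by the Polo, Aurora and NEK kinases, which build the spindle. Microtubules attach to chromosomes at the kinetochore, and a checkpoint withholds the anaphase-promoting complex until every chromosome is attached. Kinesin motors shape the spindle and, with the chromosomal passenger complex, guide cytokinesis. Transcripts of many of these genes, though not of all, accumulate as cells pass through G2 into mitosis. MYC is known to push premalignant B cells of this model into cycle before lymphomas appear. In bulk RNA, fewer dividing cells and less mitotic RNA per dividing cell cannot be told apart.

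Many of these genes are known to share a promoter layout, with CCAAT boxes bound by the factor NF-Y and, close to the start site, a cell cycle homology region read by MuvB complexes with B-MYB, FOXM1 or the RB family. RefSeq promoters (GRCm38.p6) from 250 bases before to 50 bases after the start were found for 50 of the 58 genes. Both strands were searched for the letters of this region, most often TTTGAA. Its variant TTCGAA was searched too, as was a further one, TTTAAA; both variants read the same on either strand. The letters CCAAT stood for NF-Y boxes. Either TTTGAA or TTCGAA lay within 50 bases of the start in 33 of 50 promoters (66%), against 4.28% of 15563 promoters of genes tested and 5.29% of all 27025 in the table. CCAAT lay anywhere in the window in 37 of 50 (74%), against 38.3% of tested genes and 37.9% of all. TTTAAA was found near the start in 14% of the set and in 2.85% of tested genes. Both kinds together, CCAAT anywhere and TTTGAA or TTCGAA near the start, were held by 29 of 50 (58%), against 1.96% of tested genes, and the 2 kinds of match overlapped in 1 promoter. A match of letters is a description and not a shown binding site.

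The 250 bases before the start are printed for 4 genes, 5′ to 3′ on the gene's strand, with CCAAT and TTTGAA or TTCGAA (either strand) in capitals. Cdk1, Cdc20 and Top2a show the layout in genes of 3 roles, and Cenpk, the gene that differed most between the hairpins, has 1 CCAAT and neither TTTGAA nor TTCGAA. In Cdk1 (chr10:69352913-69353162, minus strand) TTTGAA begins 15 and 71 bases before the start. In Cdc20 (chr4:118437344-118437593, minus strand) it begins 18 bases before the start, between CCAAT at 53 and 8. In Top2a (chr11:99024190-99024439, minus strand) 6 CCAAT boxes lie between 227 and 58 bases before the start. Cenpk lies on the plus strand (chr13:104228361-104228610).
Cdk1: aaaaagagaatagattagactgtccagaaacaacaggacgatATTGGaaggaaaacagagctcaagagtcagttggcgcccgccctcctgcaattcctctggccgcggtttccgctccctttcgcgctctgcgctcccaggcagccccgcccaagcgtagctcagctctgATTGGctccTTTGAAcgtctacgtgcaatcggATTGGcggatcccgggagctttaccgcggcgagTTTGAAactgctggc
Cdc20: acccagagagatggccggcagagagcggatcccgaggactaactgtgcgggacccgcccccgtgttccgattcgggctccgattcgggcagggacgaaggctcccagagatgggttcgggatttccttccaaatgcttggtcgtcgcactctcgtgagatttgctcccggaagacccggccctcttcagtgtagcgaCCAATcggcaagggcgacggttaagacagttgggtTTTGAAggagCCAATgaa
Top2a: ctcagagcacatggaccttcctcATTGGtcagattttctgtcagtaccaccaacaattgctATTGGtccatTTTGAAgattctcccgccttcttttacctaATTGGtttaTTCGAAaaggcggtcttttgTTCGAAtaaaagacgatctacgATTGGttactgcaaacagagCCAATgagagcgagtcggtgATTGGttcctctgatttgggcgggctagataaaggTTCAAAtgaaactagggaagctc
Cenpk: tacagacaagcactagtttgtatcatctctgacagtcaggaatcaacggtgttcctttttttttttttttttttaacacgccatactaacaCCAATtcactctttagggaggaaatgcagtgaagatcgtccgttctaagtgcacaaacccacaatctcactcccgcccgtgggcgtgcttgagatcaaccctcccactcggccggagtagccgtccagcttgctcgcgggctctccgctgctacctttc

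Values are log2 signals, on which a difference of 1 is a doubling. The genes of the set were bright, with all 58 above the array's median over all genes (7.02 to 7.18) on all 6 arrays and means from 8.24 (Cdc25c) to 12.3 (Ccna2). They lie on 16 chromosomes, with at most 10 on one. Ezh2, the hairpins' target, was 12.64 and 12.70 in premalignant cells, 10.92 and 11.07 with shEzh2.781, and 11.20 and 11.30 with shEzh2.556. Replicate arrays correlated at 0.991 to 0.994 over all probe sets. Of 9 defining B cell markers 8 were measured; their summed signal (log2) was 14.81 to 14.84 in premalignant cells and 14.67 to 14.79 in lymphomas. By the test used below 3 of the 8 were lower in the lymphomas, Blk by 1.03, Ebf1 by 0.49 and Pax5 by 0.44, and Cd22 was higher by 0.55. By the same test 9.61% of all genes were lower and 5.6% higher.

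Markers of other cells also differed between the groups, though not all in the direction or order of the mitotic genes. All 15 neutrophil markers were lower in the lymphomas by the test used below, and their summed signal (log2) was 13.41 to 13.63 in premalignant cells, 12.04 to 12.75 with shEzh2.781 and 10.26 to 10.92 with shEzh2.556. Of 8 measured erythroid markers 6 were lower, with sums of 11.09 to 11.43, 9.37 to 9.91 and 10.64 to 11.08 in the same order. Of 8 markers of pro-B and pre-B cells, precursors that include strongly cycling cells, 7 were lower, with sums of 12.75 to 13.25, 11.84 to 12.27 and 10.78 to 10.84. The sums for 4 measured eosinophil markers were 10.41 on both premalignant arrays and at most 7.91 in lymphomas. Salivary gland markers went the other way: 6 of 8 were higher in the lymphomas, with sums of 8.15 to 8.56, 9.27 to 9.73 and 13.5 to 14.03 in the same order. Of the remaining lists, 4 of 6 megakaryocyte and platelet, 5 of 7 NK cell and 2 of 9 T cell markers were lower. Of 10 macrophage and monocyte markers 3 were called higher and 0 lower, with differences from -1.23 to 0.6. The sums of this last list were 11.77 and 11.94 in premalignant cells, 11.32 and 11.65 with shEzh2.781, and 11.80 and 11.29 with shEzh2.556. Over all genes 9.61% were called lower and 5.6% higher. Array signals have no true zero, so no marker could be called absent. The part of these cells in the results below was not tested.

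The first comparison asked how the mitotic programme of the lymphomas of both hairpins differed from that of premalignant cells. Genes of every role but the chromosomal passenger complex were called lower. A negative difference was found for 57 of 58 genes, against 8851 of the 19938 genes tested. The median was -0.43 against 0.03 over all genes tested. The 3 groups were compared in a limma fit with Benjamini-Hochberg adjustment over all genes. At an adjusted p under 0.05, 38 of the 58 (65.5%) were called lower and 0 higher. Over all genes 9.61% were called lower and 5.6% higher. Among the 7469 genes at least as bright as the dimmest of the set 13.2% were called lower and 8.33% higher. At an unadjusted limma p under 0.05, 51 of the set were lower and 0 higher, but the share of all genes was not counted there. The called genes fell 1.27-fold to 2.87-fold, with a median of 1.41-fold. The 4 lymphoma arrays all lay below both premalignant arrays for 48 of 58 genes (82.8%), which held for 16.1% of all genes, and all 4 lay above for 0 genes (12.7% of all genes). Leaving out premalignant array 1 reduced the 38 to 17, leaving out premalignant array 2 reduced it to 19, and treating all 4 lymphoma arrays as a single group gave 14. In every fit that left out one array 12 genes were called (Aspm, Cdc20, Cdc25b, Cdc25c, Cenpe, Cenpf, Kif4, Kif18a, Kif22, Kif23, Nek2 and Tpx2).

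**Figure D1:**
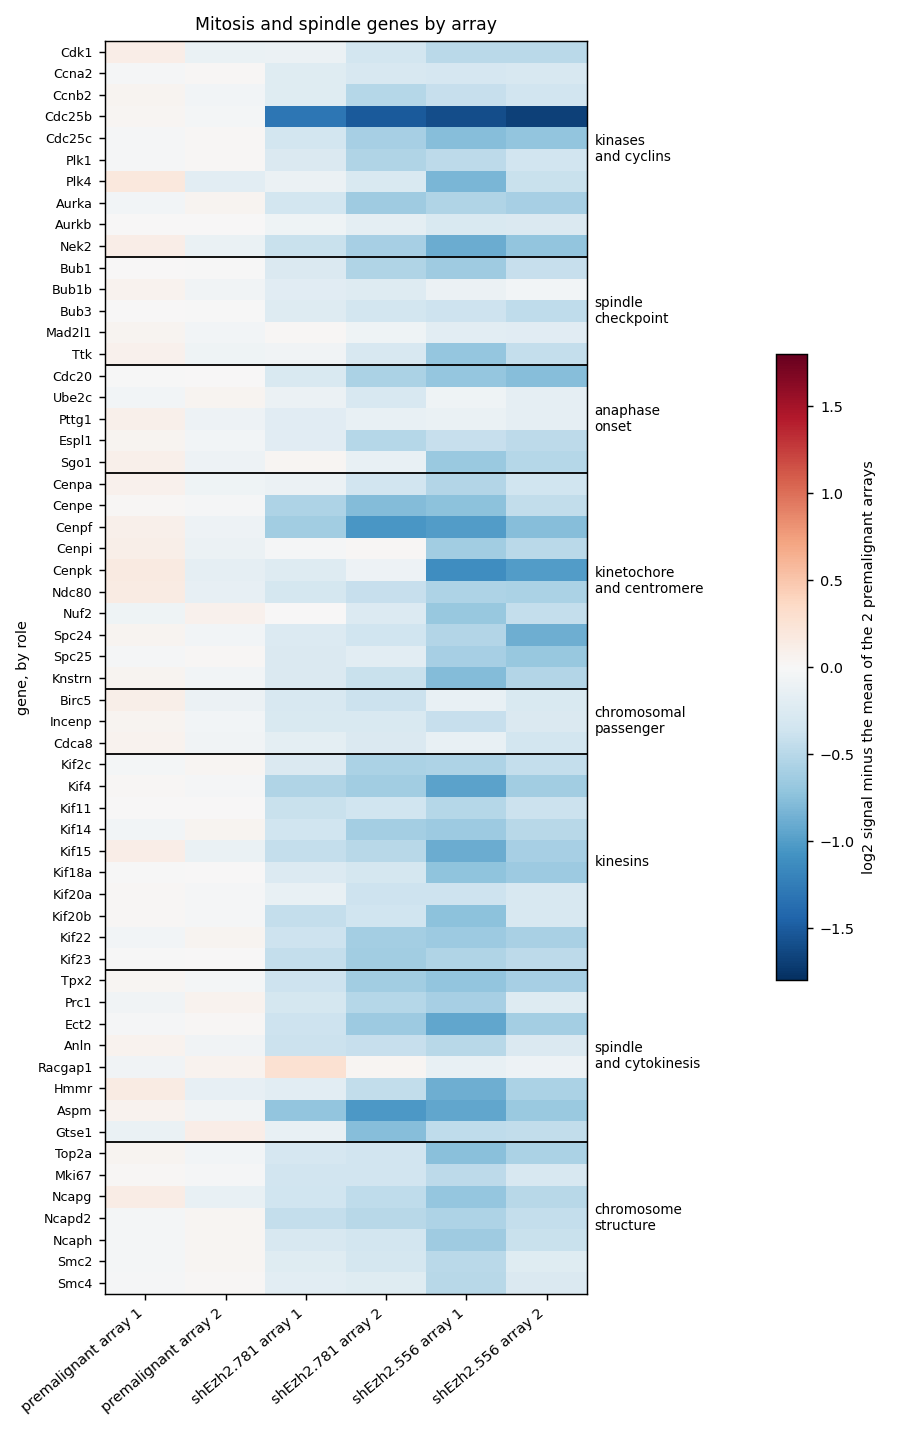
Log2 signal of the 58 mitosis and spindle genes on each of the 6 arrays, minus each gene's mean over the 2 premalignant arrays, with genes in rows grouped by role and arrays in columns; blue is lower and red is higher. The 4 lymphoma columns are blue for nearly all genes, deepest for Cdc25b, while Racgap1 and Mad2l1 stay near white.

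Among kinases, cyclins and their activators, 6 of 10 were called lower, with a median of -0.41. Cdc25b, a phosphatase that removes the inhibitory phosphates from cyclin-dependent kinases, moved far more than the rest. Its signal was 11.90 and 11.82 in premalignant cells, 10.56 and 10.35 with shEzh2.781, and 10.27 and 10.18 with shEzh2.556. All lymphoma arrays lay far below the premalignant ones, and Cdc25b fell by 1.52 (SE 0.10, limma adjusted p = 1.87e-06), a 2.87-fold decrease. No other member changed at least 2-fold in this comparison. Cdc25c, the related phosphatase of mitotic entry, fell 1.51-fold (adjusted p = 0.00212). Nek2, a kinase that separates centrosomes, read 11.06 and 10.81 in premalignant cells, 10.53 and 10.34 with shEzh2.781, and 10.04 and 10.22 with shEzh2.556. It fell by 0.65 (SE 0.11, adjusted p = 0.00197), with no overlap of lymphoma and premalignant arrays.

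The central kinase itself moved less. Cdk1 read 12.04 and 11.80 in premalignant cells, 11.82 and 11.59 with shEzh2.781, and 11.44 and 11.43 with shEzh2.556. One shEzh2.781 array lay above one premalignant array, and the difference of -0.35 (SE 0.11) missed the threshold (adjusted p = 0.0513). Plk1, the Polo kinase of spindle assembly, was 12.08 and 12.13, then 11.84 and 11.56, then 11.64 and 11.76 in the same order of groups. All lymphoma arrays were below the premalignant ones, and Plk1 fell by 0.41 (SE 0.11, adjusted p = 0.023). Aurka, the Aurora kinase of the spindle poles, read 10.62 and 10.71, then 10.33 and 10.02, then 10.12 and 10.07, and fell by 0.53 (SE 0.11, adjusted p = 0.00588). Aurkb, the Aurora kinase of the passenger complex, read 12.40 on both premalignant arrays, 12.32 and 12.22 with shEzh2.781, and 12.13 and 12.14 with shEzh2.556. Its lymphoma arrays were also all lower, but the difference was -0.20 (adjusted p = 0.207). Ccnb2, a B cyclin, fell by 0.37 (adjusted p = 0.0382), Ccna2 differed by -0.28 (adjusted p = 0.0727), and Plk4, which drives centriole duplication, differed by -0.40 (adjusted p = 0.0827).

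Of the 5 spindle checkpoint genes 3 were called lower, with a median of -0.35. Bub1, a kinase at unattached kinetochores, read 11.62 and 11.61 in premalignant cells, 11.36 and 11.07 with shEzh2.781, and 10.97 and 11.20 with shEzh2.556, and fell by 0.46 (SE 0.11, adjusted p = 0.0164). Bub3, its binding partner, read 11.36 and 11.35, then 11.12 and 11.02, then 10.98 and 10.90, and fell by 0.35 (adjusted p = 0.0296). For both genes the lymphoma arrays were separate from the premalignant ones. Ttk, the kinase that starts checkpoint signalling, fell by 0.37 (adjusted p = 0.0494), just inside the threshold and with overlapping arrays. The inhibitors that bind Cdc20 did not pass the test. Mad2l1 read 11.75 and 11.64, then 11.72 and 11.62, then 11.50 and 11.49, a difference of -0.11 with a 95% interval from -0.32 to 0.10. Bub1b read 11.47 and 11.35, then 11.21 and 11.18, then 11.30 and 11.36, a difference of -0.15 with an interval from -0.36 to 0.06. In both genes lymphoma and premalignant arrays overlapped.

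Of 5 genes of anaphase onset, 2 were called lower. Cdc20, the activator of the anaphase-promoting complex, read 11.42 and 11.43 in premalignant cells, 11.15 and 10.85 with shEzh2.781, and 10.73 and 10.66 with shEzh2.556. The 3 groups did not overlap, and Cdc20 fell by 0.58 (SE 0.11, adjusted p = 0.00321). Espl1, which encodes separase, the protease that cuts cohesin, read 10.24 and 10.15, then 9.99 and 9.68, then 9.78 and 9.72, and fell by 0.40 (adjusted p = 0.0265). Its inhibitor securin (Pttg1) and the ubiquitin-conjugating enzyme Ube2c each differed by -0.16 (adjusted p = 0.344 and 0.368). Sgo1, which protects cohesin at centromeres, differed by -0.32 (adjusted p = 0.0724).

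Kinetochore and centromere genes were called lower in 7 of 10 cases, with a median of -0.48. Cenpf, a large kinetochore protein that accumulates in G2, read 10.47 and 10.29 in premalignant cells, 9.75 and 9.33 with shEzh2.781, and 9.37 and 9.62 with shEzh2.556. It fell by 0.87 (SE 0.13, adjusted p = 0.000792), 1.82-fold, with every lymphoma array below both premalignant arrays. Cenpe, a kinesin that carries chromosomes to the spindle equator, read 10.41 and 10.36, then 9.83 and 9.61, then 9.65 and 9.94, and fell by 0.62 (SE 0.11, adjusted p = 0.00273). Ndc80 is the microtubule-binding subunit of the outer kinetochore. It read 9.92 and 9.62, then 9.46 and 9.35, then 9.22 and 9.20, and fell by 0.46 (adjusted p = 0.0126). Of the other subunits of its complex, Spc24 fell by 0.50 and Spc25 by 0.44, and Nuf2 differed by -0.34 (adjusted p = 0.0115, 0.00841 and 0.0761). Cenpa, the histone H3 variant that marks centromeres, read 11.31 and 11.16, then 11.13 and 10.89, then 10.71 and 10.87. Its lymphoma arrays were all lower, one of them by little, and the difference of -0.34 missed the threshold (adjusted p = 0.0595).

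Kinesins were the role with the highest share called, 9 of 10, with a median of -0.50. Kif4, a chromosome-bound motor, read 9.95 and 9.91 in premalignant cells, 9.39 and 9.30 with shEzh2.781, and 8.97 and 9.30 with shEzh2.556, and fell by 0.69 (SE 0.11, adjusted p = 0.00125). Kif22, which pushes chromosome arms away from the poles, read 10.61 and 10.70, then 10.28 and 10.04, then 10 and 10.07, and fell by 0.56 (SE 0.10, adjusted p = 0.00305). Kif11, the motor that drives the spindle poles apart, read 11.74 on both premalignant arrays, 11.34 and 11.38 with shEzh2.781, and 11.22 and 11.35 with shEzh2.556. It fell by 0.42 (SE 0.10, adjusted p = 0.011). None of these 3 motors had a lymphoma array as high as a premalignant one. Kif15, Kif14, Kif23, Kif18a, Kif2c and Kif20b fell by 0.60, 0.53, 0.52, 0.48, 0.46 and 0.46 (adjusted p = 0.00386 to 0.0259). Kif20a, a motor of cytokinesis, differed by -0.29 (adjusted p = 0.0865).

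The 3 genes of the chromosomal passenger complex other than Aurkb were not called. Incenp, its scaffold, read 11.07 and 10.96 in premalignant cells, 10.74 on both shEzh2.781 arrays, and 10.60 and 10.76 with shEzh2.556, a difference of -0.31 (adjusted p = 0.0596). Birc5, which encodes survivin, read 10.29 and 10.07, then 9.89 and 9.80, then 10.04 and 9.90, a difference of -0.27 (adjusted p = 0.113). Their lymphoma arrays were all below the premalignant ones, as were those of Cdca8, which encodes borealin and differed by -0.22 (adjusted p = 0.19).

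Of 8 spindle and cytokinesis genes 6 were called lower. Aspm, a protein of the spindle poles, read 10.60 and 10.48 in premalignant cells, 9.83 and 9.50 with shEzh2.781, and 9.61 and 9.87 with shEzh2.556, and fell by 0.84 (SE 0.12, adjusted p = 0.000561). Tpx2, the activator of Aurora A, read 10.92 and 10.84, then 10.51 and 10.26, then 10.17 and 10.28, and fell by 0.58 (SE 0.11, adjusted p = 0.00278). Both were lower on all lymphoma arrays. Ect2, the exchange factor that activates RhoA at the division plane, fell by 0.64 (adjusted p = 0.00357), while Racgap1, the centralspindlin subunit that binds it, was the 1 gene of the set with a positive difference. Racgap1 read 11.18 and 11.32, then 11.52 and 11.28, then 11.12 and 11.16, a difference of 0.02 with a 95% interval from -0.21 to 0.25. Hmmr, Prc1 and Anln fell by 0.52, 0.42 and 0.39 (adjusted p = 0.0169, 0.0352 and 0.025), and Gtse1 differed by -0.46 with a wide spread (SE 0.15, adjusted p = 0.0693).

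Of 7 chromosome structure genes 5 were called lower. Top2a, the topoisomerase that untangles sister chromatids, read 12.16 and 12.06 in premalignant cells, 11.81 and 11.77 with shEzh2.781, and 11.36 and 11.54 with shEzh2.556. The 3 groups were separate, and it fell by 0.49 (SE 0.10, adjusted p = 0.00533). Mki67, which encodes the proliferation antigen Ki-67, read 12.55 and 12.50 in premalignant cells. It read 12.18 on both shEzh2.781 arrays and 12.06 and 12.23 with shEzh2.556, and fell by 0.37 (SE 0.10, adjusted p = 0.0257), 1.29-fold. Of the condensin subunits, Ncapd2 read 11.84 and 11.91, then 11.45 and 11.38, then 11.32 and 11.44, and fell by 0.48 (adjusted p = 0.00517). Ncapg and Ncaph fell by 0.51 and 0.42 (adjusted p = 0.00839 and 0.017), whereas the ATPase subunits Smc2 and Smc4 differed by -0.31 and -0.29 (adjusted p = 0.0783 and 0.0781).

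**Figure D2:**
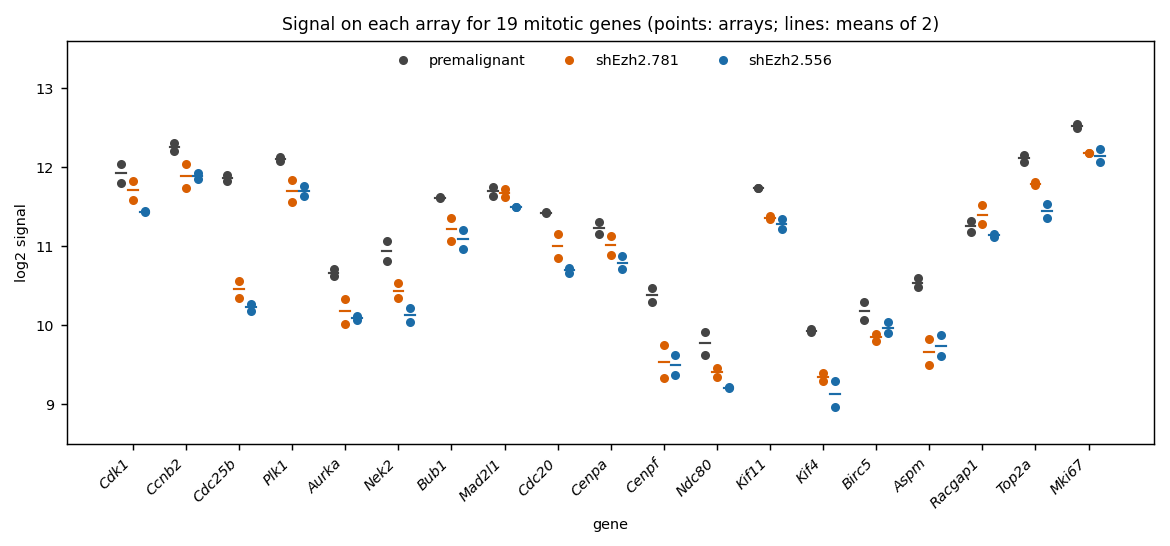
Log2 signal of 19 mitotic genes on each array (points), with the mean of the 2 arrays of each group (short lines), in premalignant cells, shEzh2.781 lymphomas and shEzh2.556 lymphomas. Cdc25b has the widest gap between premalignant and lymphoma arrays, and Mad2l1 and Racgap1 have overlapping groups.

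Each hairpin was then set against the same 2 premalignant arrays, which both comparisons share. With shEzh2.781, 15 of 58 genes (25.9%) were called lower, against 6.24% of all genes and 6.49% of those at least as bright as the dimmest of the set, and the median difference was -0.34. With shEzh2.556, 43 of 58 (74.1%) were called lower, against 11.4% of all genes and 17.7% of the bright ones, with a median of -0.53. None was called higher with either hairpin, where all genes gave 4.6% and 6.8% and the bright ones 7.04% and 7.58%. At an unadjusted limma p under 0.05, 38 genes were lower and 0 higher with shEzh2.781, and 51 and 0 with shEzh2.556. The share of all genes at that threshold was not counted. The 15 genes called with shEzh2.781 were all among the 43, of which they made up 34.9%, and 15 genes were called with neither hairpin. The shEzh2.781 count was 5 without either premalignant array and 4 without shEzh2.781 array 2, where the median was -0.26. After each array was centred on its median it was 6 (median -0.22), with 4.22% of all genes called lower and 8.69% higher, and with a trended robust prior it was 32, with 7.46% of all genes called lower. For shEzh2.556 the count dropped to 23 when premalignant array 1 was left out, and to 18 when shEzh2.556 array 1 was.

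The roles differed in how many genes passed with each hairpin. All 10 kinetochore genes were called lower with shEzh2.556 (median -0.61), and 2 of them, Cenpe and Cenpf, with shEzh2.781 (median -0.27). Kinesins were called in 9 of 10 cases with shEzh2.556 and in 5 of 10 with shEzh2.781, with medians of -0.55 and -0.44. For kinases and cyclins the counts were 7 and 4 of 10, and Cdc25b fell 3.1-fold with shEzh2.556 (adjusted p = 2.97e-06) and 2.65-fold with shEzh2.781 (adjusted p = 1.8e-05). Cdk1 fell by 0.48 with shEzh2.556 (adjusted p = 0.021) and differed by -0.22 with shEzh2.781 (adjusted p = 0.364). Of 5 checkpoint genes 3 were called with shEzh2.556 and 0 with shEzh2.781. For 5 genes of anaphase onset the counts were 3 and 0, and for 7 chromosome structure genes they were 6 and 1. A count past the threshold with one hairpin and not the other does not show that the hairpins differ, which was tested directly.

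**Figure D3:**
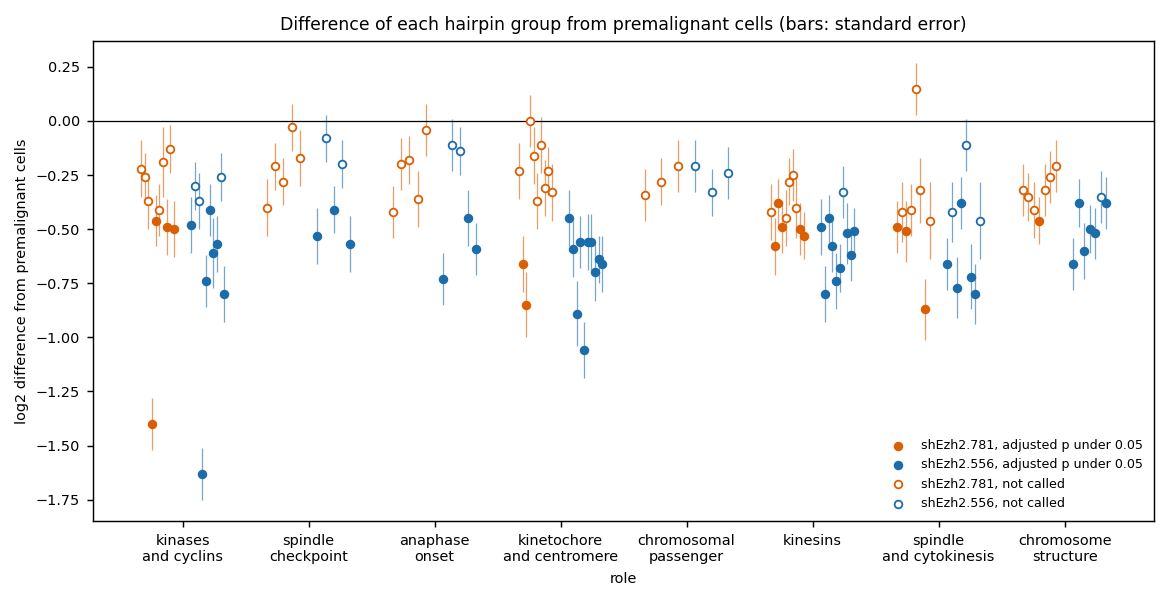
Log2 difference of each gene from premalignant cells for shEzh2.781 (orange) and shEzh2.556 (blue) lymphomas, by role, with standard errors as bars and filled points for an adjusted p under 0.05. Medians were -0.34 for shEzh2.781 and -0.53 for shEzh2.556, and all 10 kinetochore genes are filled for shEzh2.556.

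Between the lymphomas of the hairpins, 5 of 58 genes (8.62%) were called higher with shEzh2.781, against 5.5% of all genes and 8.34% of those at least as bright as the dimmest of the set, so the share was near the background. It was 11 after median centring and 10 with a trended robust prior, where 11.2% and 7.5% of all genes were called higher. None was called lower, where all genes gave 4.53% and the bright ones 2.09%. At an unadjusted limma p under 0.05, 15 genes were higher and 0 lower. The share of all genes at that threshold was not counted, so these counts have no background beside them. The median difference was 0.13 against -0.07 over all genes, and 47 of 58 differences were positive, against 7988 of 19938 over all genes. Both shEzh2.781 arrays lay above both shEzh2.556 arrays for 28 genes (48.3%; 25.0% of all genes) and below for 2 (3.45%; 40.1% of all genes). Neutrophil markers were higher with shEzh2.781 in 14 of 15 cases (median 1.83) and erythroid markers lower in 8 of 8 (median -1.06), salivary gland markers were lower in 7 of 8 (median -4.29), and their part in these differences was not tested.

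The genes called were 3 kinetochore genes, a kinesin and the cohesin protector Sgo1. Cenpk, a subunit of the inner kinetochore, read 9.10 and 8.79 in premalignant cells, 8.71 and 8.86 with shEzh2.781, and 7.83 and 7.94 with shEzh2.556. The shEzh2.781 arrays overlapped the premalignant ones, while both shEzh2.556 arrays lay well below. Cenpk was 0.90 higher with shEzh2.781 than with shEzh2.556 (SE 0.13, limma adjusted p = 0.00161), 1.87-fold, and was called in every fit that left out an array. Cenpi, of the same inner complex, read 8.95 and 8.73, then 8.82 and 8.86, then 8.21 and 8.36. It was 0.55 higher with shEzh2.781 (SE 0.12, adjusted p = 0.0166), and its shEzh2.781 arrays lay between the premalignant ones.

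Sgo1 read 10.41 and 10.23 in premalignant cells, 10.36 and 10.19 with shEzh2.781, and 9.65 and 9.81 with shEzh2.556, a difference between hairpins of 0.54 (SE 0.12, adjusted p = 0.0202). Spc25 read 9.30 and 9.35, then 9.07 and 9.13, then 8.73 and 8.64, a difference of 0.42 (SE 0.11, adjusted p = 0.0365). Kif18a, a motor that damps chromosome movements, read 9.58 and 9.60, then 9.34 and 9.28, then 8.87 and 8.94, a difference of 0.40 (SE 0.11, adjusted p = 0.0386). For Spc25 and Kif18a all 3 groups were separate, with shEzh2.781 in the middle. Quantile normalization ended these calls (adjusted p = 0.121 and 0.123), as did leaving out any one lymphoma array. The count of 5 was 2 without either shEzh2.781 array, 1 without shEzh2.556 array 1 and 3 without shEzh2.556 array 2. The Cenpi call ended without shEzh2.781 array 2 (0.0638) or shEzh2.556 array 1 (0.122), and that of Sgo1 without shEzh2.781 array 1 (0.105) or shEzh2.556 array 1 (0.139).

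The other 53 genes were not called. Unadjusted intervals were not counted over all genes, and the bright genes too were called higher (8.34%) more often than lower (2.09%). For 10 of the 53 the unadjusted 95% interval of the difference lay above 0, and for 0 below. Among these were Nuf2, at 0.44 (interval 0.15 to 0.73), Plk4, at 0.42 (0.06 to 0.78), Hmmr, at 0.40 (0.08 to 0.72), and Ttk and Spc24, both at 0.39 (0.10 to 0.68), which were as far apart as the called Kif18a. Top2a, Knstrn, Cdc20, Nek2 and Cdc25c differed by 0.34, 0.33, 0.31, 0.30 and 0.28. For the remaining 43 genes the interval included 0. For Plk1 the 95% interval of the difference ran from -0.27 to 0.27, and for Ccnb2 from -0.28 to 0.28. For Bub1b the difference was -0.13, with an interval from -0.38 to 0.11, and for Birc5 -0.12, with an interval from -0.39 to 0.14. For Cdk1 it was 0.27, with an interval from -0.01 to 0.54, which does not show that the hairpins act alike.

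**Figure D4:**
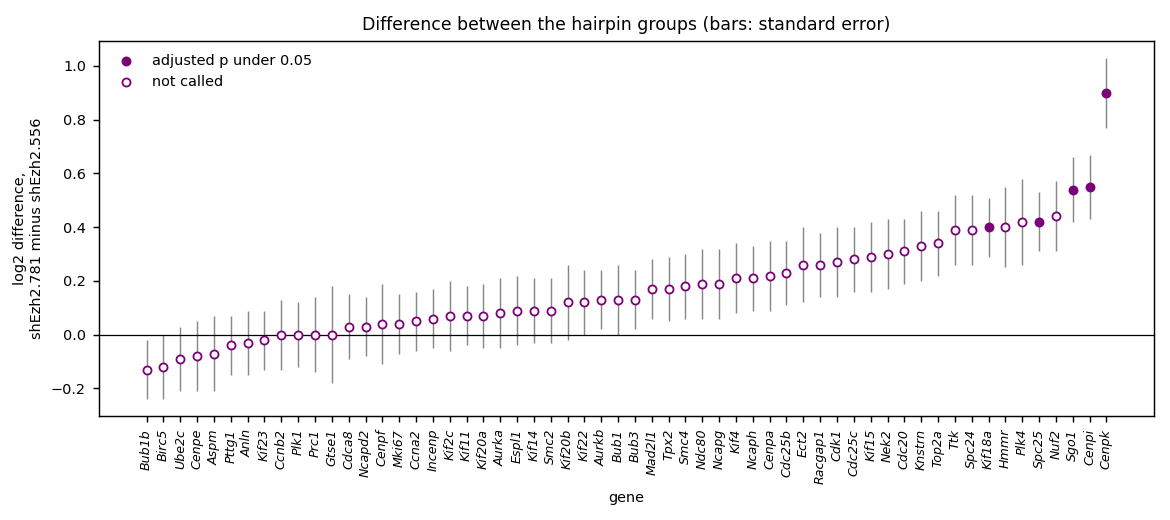
Log2 difference of each of the 58 genes between shEzh2.781 and shEzh2.556 lymphomas, in order of size, with standard errors as bars; filled points had an adjusted p under 0.05. Kif18a, Spc25, Sgo1, Cenpi and Cenpk are filled, and Cenpk stands apart at 0.90.

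Further genes of mitosis were taken from lists of other kinetochore subunits, the anaphase-promoting complex, cohesin and condensin II, and other mitotic genes. Of 94 measured, 38 (40.4%) were called lower and 1 higher in all lymphomas, against 9.61% lower and 5.6% higher over all genes and 13.2% and 8.33% among the bright ones, with a median of -0.29. Among 38 other mitotic genes 22 were lower, including Cdkn3, a phosphatase of cyclin-dependent kinases, by 0.91 (adjusted p = 0.000604), and the spindle protein gene Dlgap5 by 0.76 (adjusted p = 0.000306). Of 26 other kinetochore genes 10 were lower, among them Ska2, part of a complex that holds microtubule ends, by 0.75 (adjusted p = 0.000535). Of 15 genes of the anaphase-promoting complex and its regulators 2 were lower (13.3%), a share near that of the bright genes, Fzr1 by 0.43 (adjusted p = 0.019) and the inhibitor Fbxo5 by 0.71 (adjusted p = 0.000494). Of 15 cohesin and condensin II genes 4 were lower and 1 was higher. The one that rose was Wapl, which releases cohesin from chromosomes, at 8.24 and 8.0 in premalignant cells, 9.16 and 9.38 with shEzh2.781, and 9.06 and 9.46 with shEzh2.556. All lymphoma arrays were above the premalignant ones, and Wapl rose by 1.15 (SE 0.13, adjusted p = 9.56e-05).

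The factors that act on the promoter layout shown above did not all move alike. Foxm1, the forkhead factor of G2 and mitosis, read 10.79 and 10.88 in premalignant cells, 10.52 and 10.36 with shEzh2.781, and 10.17 and 10.26 with shEzh2.556. Its groups were separate, and it fell by 0.51 (SE 0.10, adjusted p = 0.00442). Mybl2, which encodes B-MYB, read 10.02 and 10.19, then 10.20 and 10.02, then 10.06 and 10.19, with full overlap and a difference of 0.01 (SE 0.11, adjusted p = 0.951). The NF-Y subunits Nfya and Nfyb fell by 0.46 and 0.54 (adjusted p = 0.00796 and 0.00403). In all, 3 of 10 such regulators were called lower and 0 higher. The shares were 9.61% and 5.6% over all genes, and 13.2% and 8.33% among the bright ones.

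Genes of DNA synthesis gave other counts than those of mitosis. Of 39 S phase genes 4 (10.3%) were called lower in all lymphomas, near the 9.61% of all genes, with a median of -0.12. Their median was 0.03 with shEzh2.781 and -0.23 with shEzh2.556, with 1 and 9 (23.1%) called lower. The shares were 6.24% and 11.4% of all genes, and 6.49% and 17.7% of the bright ones. Between the hairpins 7 of 39 (17.9%) were higher with shEzh2.781, against 5.5% of all genes and 8.34% of the bright ones. Their summed signal (log2) was 16.32 to 16.37 in premalignant cells, 16.28 to 16.35 with shEzh2.781 and 16.08 to 16.11 with shEzh2.556, against 16.88 to 16.92, 16.48 to 16.63 and 16.37 to 16.47 for the mitotic genes. The shEzh2.781 arrays overlapped the premalignant ones in S phase genes and lay below them in mitotic genes. No test between the lists was made.

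**Figure D5:**
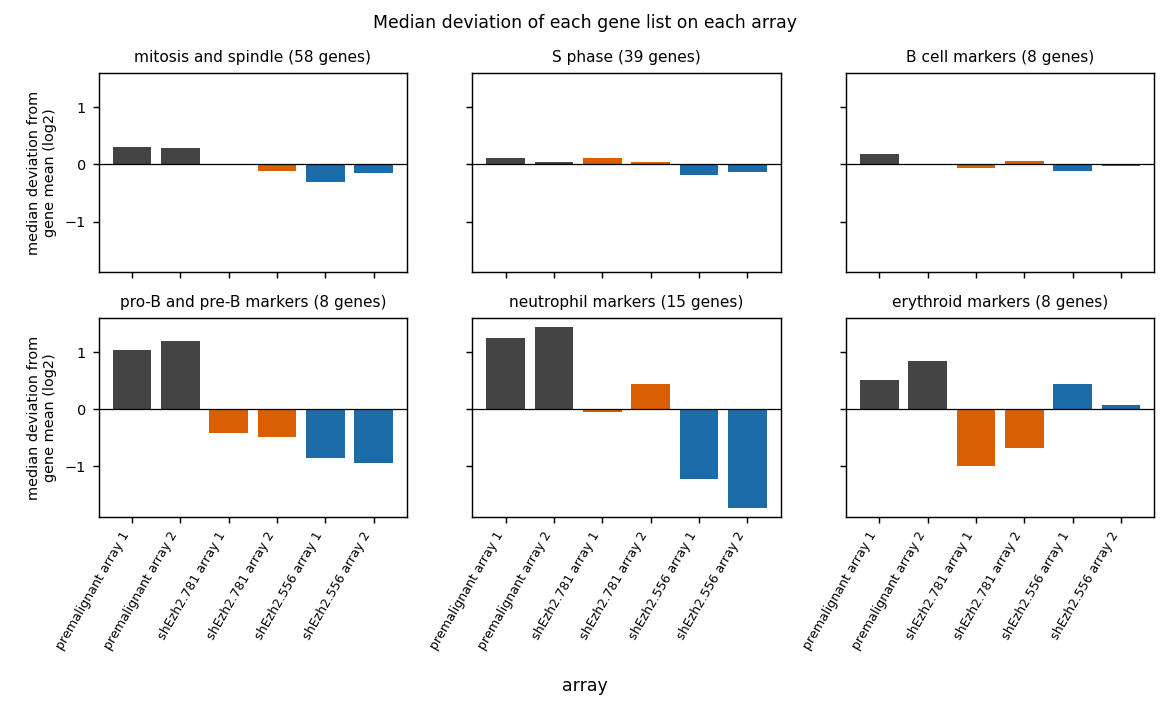
Median, over the genes of a list, of each gene's log2 signal minus its mean over the 6 arrays, for each array (bars from 0), for mitosis and spindle genes, S phase genes and 4 marker lists on 1 scale. Mitotic genes are at 0.31 and 0.28 on the premalignant arrays and at -0.30 and -0.15 on the shEzh2.556 arrays. Neutrophil markers, pro-B and pre-B markers and erythroid markers are also highest in premalignant cells. Erythroid markers are at 0.52 and 0.84 there and at 0.44 on shEzh2.556 array 1.

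The arrays could also be ordered by the set as a whole. The median deviation of the 58 genes from their own means was 0.31 and 0.28 in premalignant cells, 0.01 and -0.12 with shEzh2.781, and -0.30 and -0.15 with shEzh2.556. A premalignant array was the highest for 57 genes, and the lowest was shEzh2.556 array 1 for 34, shEzh2.781 array 2 for 14 and shEzh2.556 array 2 for 9. The highest and lowest array were not counted over all genes. Replicates differed too, since shEzh2.781 array 1 was higher than array 2 by a median of 0.17 and shEzh2.556 array 1 lower than array 2 by 0.12, next to 0.05 between the premalignant arrays.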

How the data were processed

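Per the labels, biotin-labelled total RNA from 6 samples was measured on 1-colour arrays. The authors deposited processed log2 values, 1 for each probe set and array, whose background correction, normalization and summarization are not given in the sources used here; the log2 scale was read from their range. Of 35512 probe sets 21789 had 1 gene symbol, 1621 had several and 12102 had none; only the first kind was used, with the brightest probe set for each of 19938 genes. The 3 groups were fitted together, without covariates, with limma 3.58.1 in R 4.3.3 (8.51 prior and 3 residual degrees of freedom), with Benjamini-Hochberg adjustment across all genes and a threshold of 0.05. On simulated data (19938 genes, 200 lowered in all lymphomas against premalignant cells) falls of 0.5 and 1 were recovered in 40.9% and 98.8% of cases, and 5.83% of calls were false. In the data far more genes were called in that comparison, 1916 lower and 1117 higher. The adjustment depends on that number, so the simulated rates need not hold for the data. The number of arrays limits precision. The genes, lists and tests were chosen with earlier results of these data known. Every member could be named. Array values were given for 15 set genes, of which Ccnb1 was not measured, for the 2 with the smallest p in each role and for those called between hairpins. Outside this rule they were also given for Racgap1, the 1 gene of the set with a positive difference in all lymphomas. They were given too for Wapl, the 1 higher gene of the further mitotic lists. Other lists could give up to 4 names each, by smallest p, and Foxm1, Mybl2 and Ezh2 always. Plots used matplotlib 3.10.9 and tables pandas 2.3.3, under Python 3.11.15.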

Additional observations from a re-analysis of the deposited data

Results flagged for a closer look

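For 5 genes of the set the difference from premalignant cells was called unlike between the hairpins. The calls come from the direct limma test of shEzh2.781 minus shEzh2.556 (Benjamini-Hochberg adjusted p under 0.05). The differences were 0.90 for Cenpk, 0.55 for Cenpi, 0.54 for Sgo1, 0.42 for Spc25 and 0.40 for Kif18a, all higher with shEzh2.781. These are 8.62% of the set, near the 5.5% of all genes and 8.34% of the bright ones called higher. Quantile normalization ended the calls of Spc25 and Kif18a. All the calls but that of Cenpk also depended on single arrays, as given above. Groups of 2 arrays are too small for a test of single arrays that stand apart.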

How the results depend on the processing

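Of the counts called lower, 38 in all lymphomas was 14 with the 4 lymphomas as one group and 17 to 42 when one array was left out. The 15 with shEzh2.781 was 6 after centring each array on its median, 32 with a trended robust prior and 4 to 19 without one array. The 43 with shEzh2.556 was 18 to 43 without one array. The 5 higher between hairpins was 11 after median centring, 3 after quantile normalization, 10 with the trended robust prior, 3 with a replicate block and 1 to 5 without one array. The median difference was -0.22 with shEzh2.781 and 0.24 between hairpins after median centring. Without one array it was -0.38 to -0.26 with shEzh2.781, -0.57 to -0.45 with shEzh2.556 and 0.08 to 0.24 between hairpins. The cause was not tested. Median centring moved the median of all genes by 0.12 and 0.11 in the shEzh2.781 and hairpin comparisons. Medians kept their sign under every alternative, and counts of 0 stayed 0. The replicate numbers did not pair the samples (correlations of deviations -0.124 to 0.064), and the block left 38 lower in all lymphomas. A lone array was assumed to vary like the other groups. The values used here give no background level, so how far low signal limits the values was not tested.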

Other observations

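Genes were split by the letters TTTGAA or TTCGAA within 50 bases of the start. This split was chosen after the values were seen and is given with no test. In all lymphomas the median difference was -0.44 for the 33 genes with these letters (25 called lower) and -0.46 for the 17 without (10 called lower). With shEzh2.556 the medians were -0.53 and -0.56, with shEzh2.781 -0.38 and -0.33, and between the hairpins 0.13 and 0.17. Of the 5 genes called between the hairpins, Sgo1 and Spc25 hold the letters and Cenpi, Cenpk and Kif18a do not.

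A further probe set was annotated to each of Kif14 and Top2a. Both were dim, at 4.16 to 4.42 for Kif14 and 4.37 to 6.41 for Top2a, and were not used. The highest reading of the dim Top2a probe set was on shEzh2.781 array 1, while the one used was highest on premalignant array 1.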
